A study of Mus musculus with 2 samples.

Results

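Ccr7, S1pr1, Klf2 and Cd69 are 4 of the 27998 genes counted in 2 single-cell libraries of mouse brain tissue bearing glioma. They were grouped because they govern how lymphocytes and dendritic cells travel to lymph nodes, leave tissue or stay in it, and they were matched by gene symbol in both count matrices. All 4 were found in both. On mm10, in GENCODE M21, Ccr7 (ENSMUSG00000037944) lies on the minus strand at chr11:99144196-99155077 and S1pr1 (ENSMUSG00000045092) on the minus strand at chr3:115710433-115715072. Klf2 (ENSMUSG00000055148) lies on the plus strand at chr8:72319033-72321656 and Cd69 (ENSMUSG00000030156) on the minus strand at chr6:129267325-129275436. Each is a protein-coding gene.

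Both libraries came from Kunming mice, an outbred stock, that carried G422, a mouse glioma cell line, as a tumour placed in the brain. The LTS library came from mice that outlived a first tumour by more than 100 days after combined therapy, whose agents the labels do not name, and that then received the same tumour cells on the opposite side. The control library came from untreated mice on day 7 after inoculation. Day 7 is also given for LTS, but the labels do not make clear which inoculation it counts from. How many animals each library pools is not stated in those labels. There was 1 library per group, cells are not replicates, and so no difference between LTS and control could be tested. Every 95% interval below covers counting error only, treats each UMI (unique molecular identifier, a tag of 1 captured transcript) as independent, and leaves out differences between cells, animals and preparations.

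Ccr7 encodes the chemokine receptor for Ccl19 and Ccl21, which draws naive and central memory T cells, B cells and mature dendritic cells into and within lymph nodes. S1pr1 encodes a receptor for sphingosine 1-phosphate, a lipid that is abundant in blood and lymph, and lymphocytes follow it out of tissue; endothelial cells also use the receptor to maintain the vessel barrier. Klf2 is a transcription factor that in resting T cells drives S1pr1, and that in endothelium responds to blood flow. Cd69 is a membrane lectin that appears soon after lymphocyte activation and on T cells resident in tissue. It binds the S1pr1 protein and takes it off the cell surface, an effect on protein that transcript counts do not record.

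Klf2 drives S1pr1 in resting T cells and was the better counted of the 2 members that differed between the libraries in T cells, so the 120 bases before its start are shown. They are from RefSeq (GRCm38.p6), on the plus strand at chr8:72318913-72319032, and the capitals mark CTAAATTTAG, the one match to the 10-base MEF2 consensus in these bases. RefSeq's promoter table held 1 of the 4 members.
Klf2 promoter: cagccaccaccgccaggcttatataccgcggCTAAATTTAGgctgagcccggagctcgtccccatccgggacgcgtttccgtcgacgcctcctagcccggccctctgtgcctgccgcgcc
The capitals span bases 72318944 to 72318953. The consensus reads the same on both strands, was the only motif searched, and is held by 183 of 32851 promoter windows of 300 bases (0.557%). The match describes the sequence, and binding was not measured here.

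The LTS library held 149413534 UMIs and the control library 165796852. Barcodes with at least 1000 UMIs, at least 300 genes and at most 15% mitochondrially encoded UMIs were kept, which left 4835 LTS cells with a median of 18779 UMIs and 8310 control cells with a median of 14889.5 UMIs. The libraries shared 13 of these barcodes, of which 1 was an LTS T cell and none a control T cell. Although the gradient fraction was collected for immune cells, an unnamed pool of cells with little Ptprc made up 45.9% of LTS and 55.0% of control cells. Cells were clustered without the 4 members and named from marker genes. T cells here are cells of the T cell-like cluster with a Cd3d, Cd3e or Cd3g UMI and no C1qa, C1qb or C1qc UMI, and there were 319 in LTS (median 3216 UMIs) and 48 in control (median 2197.5). All 11 T cell markers in the files were found in the T cells of both libraries. LTS also held 73 B cell-like, 227 monocyte-like, 634 microglia-like, 18 mature dendritic cell-like and 74 endothelial cell-like cells, and control 24, 418, 762, 18 and 143 of the same classes. B cell-like and mature dendritic cell-like cells were under the 30 cells per library set for a ratio, so their values stand side by side without one. The B cell markers Cd79a and Ms4a1 were found in 70 and 63 of 73 LTS cells and in 21 and 17 of 24 control cells. Barcodes with 1 to 100 UMIs, which hold mostly free RNA, gave the background: Ccr7 5.54 CPM (counts per 1e6 UMIs) in LTS and 4.08 in control, S1pr1 15.7 and 9.36, Klf2 115 and 105, and Cd69 10.4 and 5.76.

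Ccr7 was highest in mature dendritic cell-like cells in both libraries. These cells carry antigen towards lymph nodes, and their cluster was named from Fscn1, Ccl22 and other markers without Ccr7. Ccr7 was nevertheless the gene leading that cluster, so its level there describes the class and is not a separate finding. Summed Ccr7 was 3111 CPM (95% interval 2786 to 3465, 332 UMIs) in LTS and 818 CPM (634 to 1039, 67 UMIs) in control. Single LTS cells ranged between 0 and 7421 CPM with a median of 2535, and single control cells between 0 and 3304 CPM with a median of 1300, so the cells of the libraries overlapped. A Ccr7 UMI was found in 17 of 18 LTS cells and 16 of 18 control cells, and after thinning each cell to 1000 UMIs in 17 and 12. The other measures of the class moved with it. Median UMIs per cell were 5960.5 in LTS and 2491.5 in control, and the 10 markers summed to 6429 CPM in LTS and 2907 CPM in control. Per 100 marker UMIs there were 48.4 Ccr7 UMIs in LTS and 28.2 in control. Free RNA was estimated at 17.8% of UMIs in these LTS cells and 74.4% in these control cells, though that estimate predicts more Klf2 (20.4 and 77.9 CPM) than was counted (9.37 and 24.4 CPM). The part of these measures in the Ccr7 difference was not tested.

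Outside that class Ccr7 was sparse. B cell-like cells had 43.4 CPM (11 UMIs) in LTS and 43.5 CPM (2 UMIs) in control. T cells had 5.06 CPM (1.86 to 11.0, 6 UMIs in 5 cells) in LTS and 54.2 CPM (21.8 to 112, 7 UMIs in 5 cells) in control. The LTS T cell level was no higher than the free RNA of its library, whereas the control T cell level was above that of its own. Monocyte-like cells had 7 UMIs in LTS, 6 of them in 1 cell, and 1 UMI in control. Endothelial cell-like cells, and the plasmacytoid and conventional dendritic cell-like cells, had no Ccr7 UMI in either library; for the endothelial cell-like cells the counts of 0 allow shares of cells with a UMI of up to 4.05% in LTS and 2.10% in control, taking 3 cells of the total as the limit here and for every other count of 0.

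S1pr1 was highest in endothelial cell-like cells, where Cldn5 and Pecam1 mark the class. It reached 141 CPM (124 to 160, 243 UMIs) in LTS and 114 CPM (100.4 to 129, 246 UMIs) in control, and 55 of 74 LTS and 98 of 143 control cells had a UMI. B cell-like cells were next at 78.8 CPM (48.1 to 122) in LTS and 86.9 CPM (23.7 to 223) in control, the control value from 4 UMIs. T cells had 21.1 CPM (13.7 to 31.2, 25 UMIs in 21 cells) in LTS and 31.0 CPM (8.44 to 79.3, 4 UMIs in 4 cells) in control. In LTS the first 4 ranks (endothelial, B, T, monocyte-like) had counting intervals that did not overlap, while in control each class overlapped the next. The S1pr1 intervals of T cells include the free RNA levels of 15.7 CPM in LTS and 9.36 CPM in control. Monocyte-like cells had 4.13 CPM in LTS and 4.78 CPM in control, and microglia-like cells 3.53 and 3.70 CPM, below the free RNA of each library. After thinning, 2.82% (1.30 to 5.29) of LTS T cells and 2.08% (0.0527 to 11.1) of control T cells had an S1pr1 UMI, against 0.789% and 0.525% of microglia-like cells (median 6402.5 and 5597 UMIs).

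Klf2 was found in every class of the comparison and was highest in B cell-like cells, at 363 CPM (292 to 445, 92 UMIs) in LTS and 304 CPM (166 to 510, 14 UMIs) in control. Microglia-like cells, macrophages that live in the brain itself, had 183 CPM (171 to 194) in LTS and 192 CPM (180 to 205) in control. Endothelial cell-like cells had 153 CPM (135 to 172) in LTS and 142 CPM (126 to 159) in control. These 3 classes were above the 115 and 105 CPM of the free RNA in both libraries. T cells stood at 56.6 CPM (43.8 to 71.8, 67 UMIs in 37 cells) in LTS and 124 CPM (70.8 to 201, 16 UMIs in 10 cells) in control, and monocyte-like cells at 39.3 and 51.9 CPM. The LTS T cell value was thus close to the 57.4 CPM of the LTS non-immune pool and below the free RNA. Mature dendritic cell-like cells were lowest, with 1 and 2 UMIs. With finer clustering the highest control class became microglia-like.

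Among the 6 classes compared, Cd69 was highest in T cells and B cell-like cells in both libraries. T cells had 203 CPM (179 to 231, 241 UMIs in 131 cells) in LTS and 201 CPM (132 to 295, 26 UMIs in 13 cells) in control. B cell-like cells had 209 CPM (156 to 273, 53 UMIs) in LTS, of which 1 cell gave 13 UMIs, and 109 CPM (35.3 to 254, 5 UMIs) in control. The intervals of T and B cell-like cells overlapped within each library. Some smaller sets outside these classes reached similar levels. Cells of the T cell-like cluster with an Ncr1, Klrb1c or Klre1 UMI and no Cd3 UMI were 5 in LTS and 11 in control. They had 195 CPM (4 UMIs) and 108 CPM (3 UMIs). Plasmacytoid dendritic cell-like cells had 151 CPM in LTS (14 UMIs, 8 in 1 cell) and 28.9 CPM in control (2 UMIs). Monocyte-like cells had 51.7 CPM (40.6 to 64.7) in LTS and 64.2 CPM (51.9 to 78.5) in control, and microglia-like cells 30.9 CPM (26.4 to 36.0) and 38.0 CPM (32.6 to 44.1). Within the microglia-like class the larger cluster had 34.5 CPM in LTS and 38.5 CPM in control, and the smaller one 6.99 CPM (5 UMIs) and 12.5 CPM (1 UMI). Endothelial cell-like cells had 1 UMI in LTS and 0 of 143 cells in control, where a count of 0 allows a share of cells with a UMI of up to 2.10%. The T cell level of Cd69 was far above the free RNA, which held 10.4 CPM of it in the LTS library and 5.76 CPM in the control library.

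**Figure D1:**
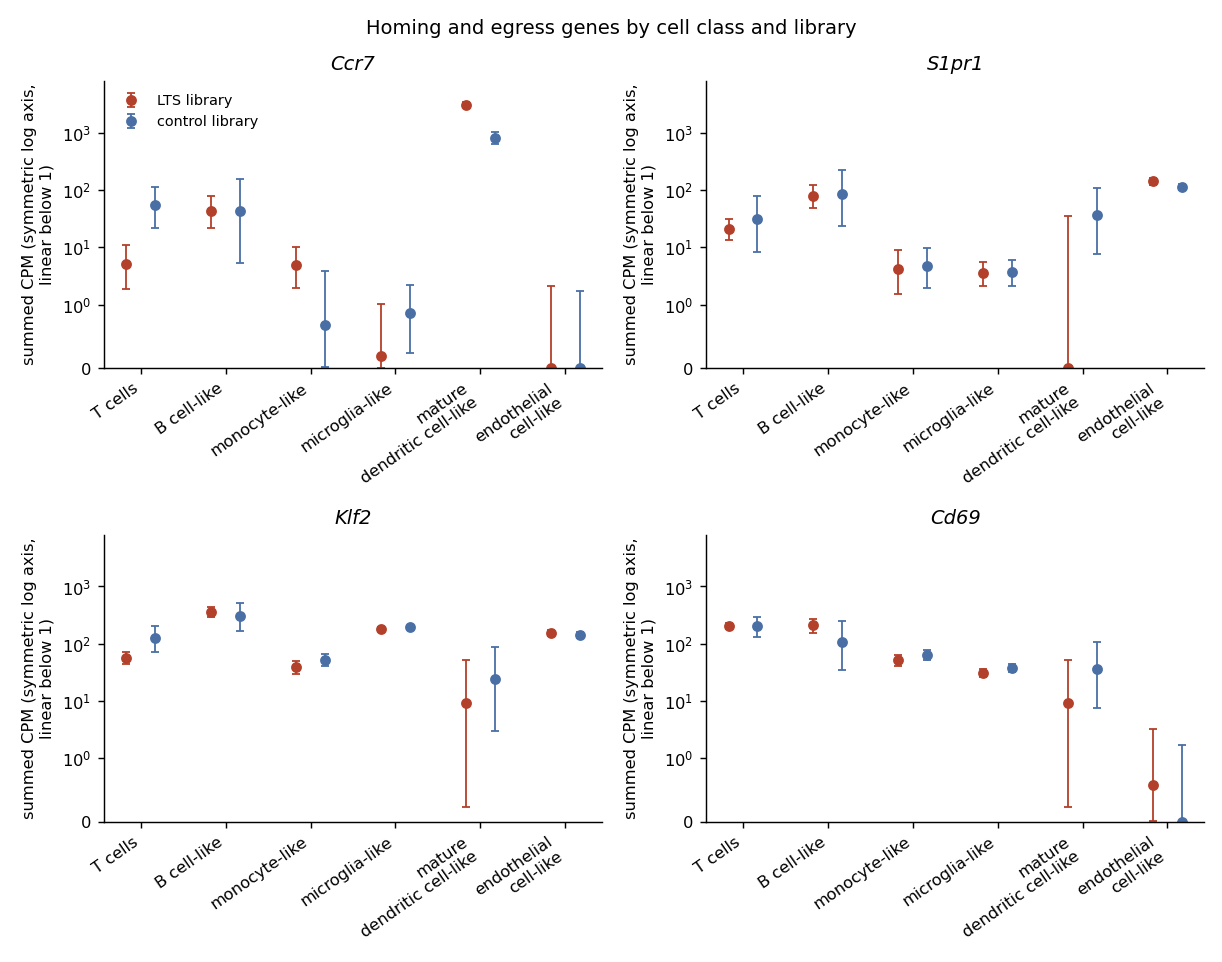
Summed level of each member (CPM, symmetric log axis that is linear below 1) in 6 cell classes, with LTS in red at the left and control in blue at the right of each pair; bars are exact 95% Poisson intervals. Ccr7 stands highest in mature dendritic cell-like cells, S1pr1 in endothelial cell-like cells and Klf2 in B cell-like cells in both libraries, while Cd69 is near 200 CPM in T cells of both (203 and 201 CPM).

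Between the libraries, Ccr7 and Klf2 were lower in LTS T cells, while Cd69 was nearly equal and S1pr1 could not be told apart at this depth. Ccr7 was 10.7-fold lower in LTS (3.08 to 38.5), a log2 ratio of -2.56 with a pseudocount of 5 CPM, and it rests on 6 and 7 UMIs. Klf2 was 2.19-fold lower (1.18 to 3.82), a log2 ratio of -1.07. Cd69 had a ratio of LTS over control of 1.01 (0.673 to 1.58). S1pr1 had a ratio of 0.681 (0.235 to 2.69), and its level was below the 50 CPM in either library required of a gene in this comparison. Ccr7 met that minimum only through its 7 UMIs in control, where it was at 31.8 CPM without its top cell, so it is not counted. Klf2 and Cd69 met it in both libraries, and of these Klf2 was at least 2-fold lower in LTS and neither was at least 2-fold higher. Among 3686 genes, 11.2% were at least 2-fold lower and 4.69% at least 2-fold higher, together 586 genes (15.9%). These genes had at least 50 CPM in either library, so they include genes that met it in 1 library only, unlike the members counted. The median log2 ratio of all genes was -0.23, and relative to it Ccr7 was -2.33, Klf2 -0.84 and Cd69 0.24. Scaling by the median of ratios instead moved that median to -0.072 and the split to 244 higher and 321 lower genes, from 173 higher and 413 lower. Klf2 fell short of 2-fold with this scaling (-0.93), with equal weight to each cell (-0.91), with a pseudocount of 20 CPM (-0.91) and without the cell with most Klf2 UMIs in each library (-0.79).

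The T cells of the libraries also differed in other measures. The 11 T cell markers summed to 5051 CPM in LTS T cells and 3175 CPM in control T cells, with medians per cell of 5266 and 2596 CPM. Fibroblast markers summed to 161 CPM in LTS T cells and 604 CPM in control T cells. The part of these differences in the ratios of the members, Cd69 included, was not tested. Free RNA was estimated at 29.9% of UMIs in LTS T cells and 49.4% in control T cells, which would supply 34.3 of the 56.6 CPM of Klf2 in LTS and 51.7 of the 124 CPM in control. With that part taken off, the Klf2 log2 ratio was -1.95. NK cell markers summed to 2984 CPM in LTS T cells and 875 CPM in control T cells, with 9 and 8 of 10 found and Klra8 at 0 in both. These markers include Gzma, a leading gene of the T cell-like cluster itself, so the sum does not measure NK cell content. Single markers differed in direction. Ncr1 was 3.38 CPM (4 UMIs) in LTS and 15.5 CPM (2 UMIs) in control, and Klrb1c 0.844 CPM (1 UMI) and 15.5 CPM (2 UMIs). Klre1 was 133 CPM in LTS and 54.2 CPM in control. Of 8 B cell markers, 7 including Cd79a were at 0 in the T cells of both libraries. Mature dendritic cell markers summed to 94.5 CPM in LTS and 225 CPM in control, per cell between 0 and 2049 CPM and between 0 and 2105 CPM, with Ccl22 at 0 in both. Among the T cells with a Ccr7 UMI, 5 in LTS and 5 in control, 2 and 2 had a mature dendritic cell marker, none had a B cell marker and all had T cell markers. Their part in the Ccr7 difference was not tested. Of 17 measured dissociation stress genes, 7 were higher and 10 lower in LTS T cells, with a median log2 ratio of -0.52 against -0.21 for all 7119 genes at the same minimum of 20 CPM.

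The members were also compared without the gate for T cells. Over the whole T cell-like cluster, 480 LTS and 97 control cells, Cd69 was 203 CPM in LTS and 143 CPM in control. Its ratio there was 1.42 (1.03 to 2.0), with an interval that overlaps the 0.673 to 1.58 of the gated T cells. Of all genes measured over that cluster, 10.9% were past 2-fold. Klf2 was 2.11-fold lower there (1.37 to 3.17) and Ccr7 5.40-fold lower (1.81 to 15.8). Ccr7 rests on 9 UMIs in LTS (4.92 CPM) and 8 in control (26.5 CPM). It was under the minimum of 50 CPM in both, so it is not among the genes measured. That cluster held 14 LTS and 19 control cells without a Cd3 UMI, and 147 and 30 with both a Cd3 and a C1q UMI. In the whole cluster C1qa, a macrophage gene, reached 89.1 CPM in LTS and 279 CPM in control cells.

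Other classes differed less. In monocyte-like cells Klf2 had a ratio of LTS over control of 0.757 (0.527 to 1.08) and Cd69 of 0.805 (0.586 to 1.10). Neither was past 2-fold, as were 1.72% of genes in that class. In microglia-like cells the ratios were 0.951 (0.867 to 1.04) for Klf2 and 0.812 (0.652 to 1.01) for Cd69, with 0.782% of genes past 2-fold. The smaller microglia-like cluster, which had the lower Cd69 level, held 226 of 634 LTS and 30 of 762 control cells of the class, and the part of that makeup in the ratios was not tested. In endothelial cell-like cells S1pr1 was 1.24 times as high in LTS (1.03 to 1.48) and Klf2 1.08 times (0.911 to 1.28), with 0.644% of genes past 2-fold. Every marker of that class was also higher in LTS, for example Pecam1 (366 CPM in LTS and 293 CPM in control) and Cldn5 (2332 and 1699 CPM). The part of this in the S1pr1 ratio was not tested. The S1pr1 log2 ratio of 0.29 in endothelial cell-like cells became 0.0071 with free RNA taken off. That step took 64.4% of UMIs as free RNA in these LTS cells and 71.4% in these control cells. This estimate predicts more Cd69 (6.72 and 4.11 CPM) than was counted (0.581 and 0 CPM). It also predicts 3.57 and 2.91 CPM of Ccr7, of which none was counted, so it takes off too much for these genes. The Klf2 log2 ratio of 0.10 became 0.63 with equal weight to each cell. Klf2 in the non-immune pool was 57.4 CPM in LTS and 57.5 CPM in control, where 0.201% of genes were past 2-fold.

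**Figure D2:**
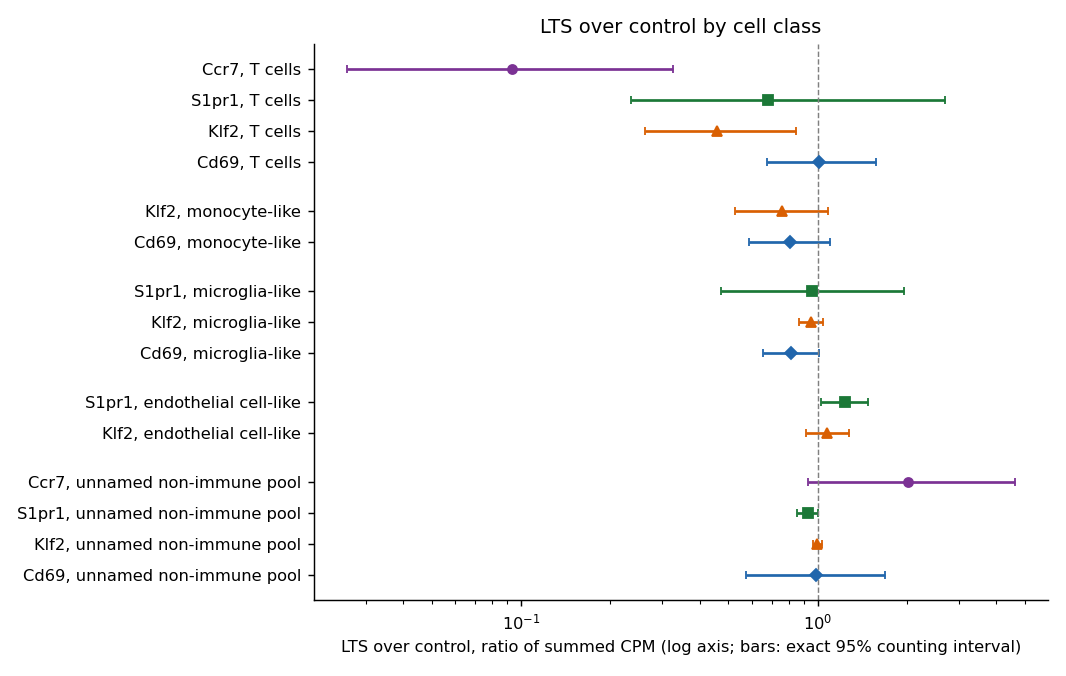
Ratio of summed CPM, LTS over control (log axis), for the members in 5 cell classes; bars are exact conditional 95% intervals and the dashed line marks a ratio of 1. Outside T cells, pairs with under 20 UMIs in the 2 libraries together are left out. The intervals of Ccr7 (0.0934) and Klf2 (0.456) in T cells lie below 1, and that of S1pr1 in endothelial cell-like cells (1.24) lies above it.

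T cells were split by coreceptor transcripts, with CD8 cells having a Cd8a or Cd8b1 UMI and CD4 cells a Cd4 UMI. CD8 cells were 194 of 319 LTS T cells (60.8%, 55.2 to 66.2) and 13 of 48 control T cells (27.1%, 15.3 to 41.8). CD4 cells were 58 (18.2%) and 8 (16.7%), and 64 (20.1%) and 27 (56.3%) had neither. Median UMIs were 3216 in LTS and 2197.5 in control T cells, and the part of depth in these shares was not tested.

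Ccr7 had no UMI in 194 LTS CD8 cells, which allows a share of cells with a UMI of up to 1.55%, nor in 13 control CD8 cells. It was found in CD4 cells, with 4 UMIs in 4 LTS cells and 5 UMIs in 3 control cells. The Ccr7 level in CD4 cells was 14.3 CPM (3.89 to 36.6) in LTS and 200 CPM (64.9 to 466) in control. Within LTS, the interval of 0 CD8 against 4 CD4 UMIs begins at a fold of 1.60 lower in CD8 cells. S1pr1 was 10.3 CPM (7 UMIs) in LTS CD8 cells and 32.1 CPM (9 UMIs) in LTS CD4 cells, 3.11-fold lower in CD8 (1.03 to 9.84). Klf2 was 36.8 CPM (25 UMIs) in LTS CD8 cells and 71.4 CPM (20 UMIs) in LTS CD4 cells, 1.94-fold lower in CD8 (1.02 to 3.63). Cd69 was 202 CPM in LTS CD8 cells and 182 CPM in LTS CD4 cells, a ratio of 1.11 (0.798 to 1.56). Cd69 was the only member whose interval between the LTS subsets includes 1, though those of S1pr1 and Klf2 begin close to 1. In LTS CD4 cells, 1 cell gave 3 of the 9 S1pr1 UMIs and 1 cell gave 5 of the 20 Klf2 UMIs. Without the top cell of each subset, S1pr1 was 8.88 CPM in CD8 and 21.9 CPM in CD4 cells. Klf2 was then 31.1 CPM in CD8 and 54.7 CPM in CD4 cells. The control subsets held too few UMIs for such a ratio: CD8 cells had 0 S1pr1, 5 Klf2 and 6 Cd69 UMIs, and CD4 cells 2, 1 and 6.

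**Figure D3:**
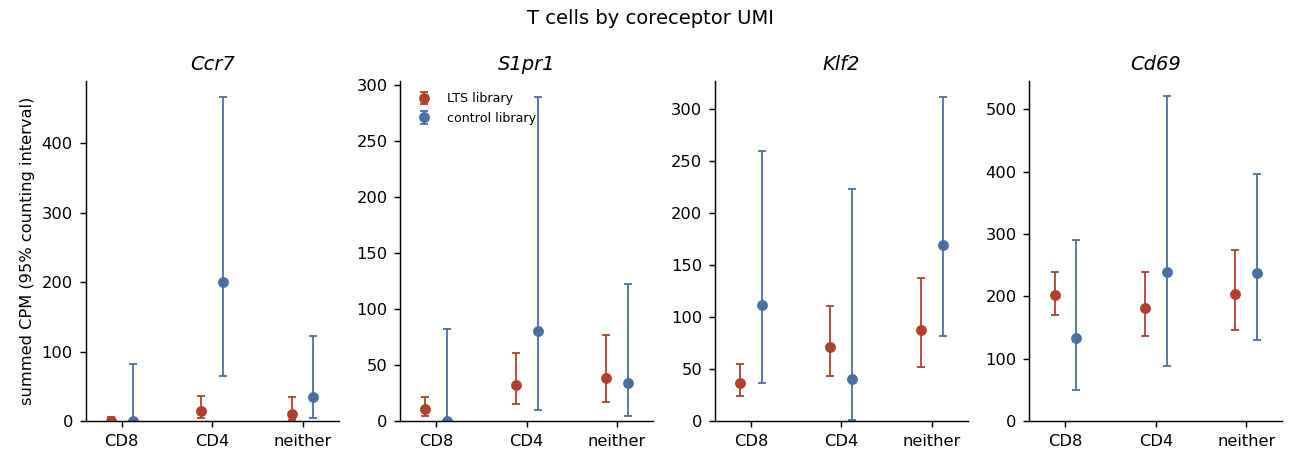
Summed CPM of each member in T cells with a CD8 coreceptor UMI, a CD4 coreceptor UMI or neither, LTS in red at the left and control in blue at the right of each pair; bars are exact 95% Poisson intervals. In LTS, S1pr1 and Klf2 are lower in CD8 (10.3 and 36.8 CPM) than in CD4 cells (32.1 and 71.4 CPM), with Poisson intervals that overlap. The control intervals are wide.

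Cd69 was next set against S1pr1 and Klf2 within single T cells, since the Cd69 protein removes S1pr1 from the cell surface and Klf2 drives S1pr1 transcription. After thinning each cell to 1000 UMIs, 48 LTS T cells had a Cd69 UMI and 271 had none. S1pr1 was found in 1 of the 48 (2.08%) and in 8 of the 271 (2.95%), a difference of -0.87 percentage points (-5.68 to 9.79). Klf2 was found in 4 of the 48 (8.33%) and in 15 of the 271 (5.54%), a difference of 2.80 points (-6.65 to 16.9). Neither transcript was detectably less frequent in cells with a Cd69 UMI at this depth, and the intervals allow a difference in either direction. For comparison, 5.59% of cells in the LTS non-immune pool, at a median of 43605.5 UMIs before thinning, had a Klf2 UMI.

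Without thinning the shares overlapped as well. S1pr1 was found in 10 of 131 LTS T cells with a Cd69 UMI (7.63%) and 11 of 188 without (5.85%), and Klf2 in 17 (13%) and 20 (10.6%). Ccr7 was found in 0 of 131 cells with a Cd69 UMI and in 5 of 188 without (2.66%, 0.869 to 6.10); the count of 0 allows a share of cells with a UMI of up to 2.29%. Median UMIs were 3431 in cells with and 3058.5 in cells without a Cd69 UMI. Among LTS CD8 cells, Klf2 was found after thinning in 4 of 26 with a Cd69 UMI (15.4%, 4.36 to 34.9) and 6 of 168 without (3.57%, 1.32 to 7.61), with intervals that overlap. LTS CD4 cells went the other way, with Klf2 in 0 of 11 with a Cd69 UMI and 3 of 47 without (6.38%, 1.34 to 17.5). There the count of 0 allows a share of cells with a UMI of up to 27.3%. In control, S1pr1 was found in 2 of 13 T cells with a Cd69 UMI and 2 of 35 without, and Klf2 in 3 and 7, too few to compare.

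**Figure D4:**
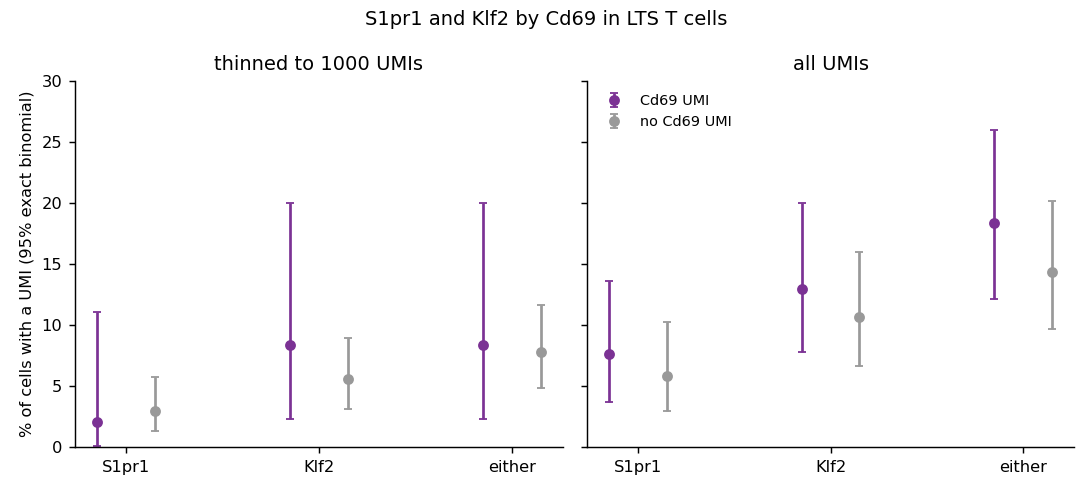
Share of LTS T cells with a UMI of S1pr1, of Klf2 or of either, in cells with (purple, left) and without (grey, right) a Cd69 UMI, after thinning to 1000 UMIs (left panel) and with all UMIs (right panel); bars are exact 95% binomial intervals. The intervals of cells with and without Cd69 overlap for every gene, for example 8.33% and 5.54% for Klf2 after thinning.

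LTS T cells with an S1pr1 or Klf2 UMI differed in other genes of the pathway. After thinning, 25 LTS T cells had one and 294 did not, and both sets were compared on all their UMIs, of which cells with one had a median of 2610 and cells without 3263.5. Cells with one had higher Klf3, a relative of Klf2 (110 against 9.97 CPM, 11.0-fold, 4.05 to 29.3), from 9 UMIs in 8 cells. Tcf7 and Lef1, transcription factors of naive and memory T cells, were 5.16-fold (2.5 to 10.04) and 3.78-fold (1.38 to 8.99) higher. Foxo1, which acts upstream of Klf2, was 2.94-fold higher (1.32 to 5.90), and Il7r, the receptor for interleukin 7, 2.04-fold higher (1.46 to 2.78). Dock2, which lymphocytes need to migrate, was 1.72-fold higher (1.14 to 2.5).

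Some genes of tissue retention were lower in the same cells. Itgae, the integrin that anchors T cells to epithelium, was 61.2 CPM in cells with and 194 CPM in cells without an S1pr1 or Klf2 UMI, a ratio of 0.316 (0.101 to 0.748). Cxcr6, a receptor that holds resident T cells by its chemokine, had a ratio of 0.648 (0.442 to 0.918). Xcl1, a chemokine for dendritic cells, had a ratio of 0.0738 (0.00186 to 0.416), but its 183 UMIs in cells without lay in 17 cells. Rgs10, a regulator of chemokine signals on the egress and homing list, was lower as well, at 0.379 (0.137 to 0.838). Cd69 itself was 196 CPM with and 204 CPM without (0.960, 0.540 to 1.59). Cd8a was lower in cells with an S1pr1 or Klf2 UMI (0.479, 0.286 to 0.755), whereas Cd4 had a ratio of 0.975. The part of the coreceptor makeup in these differences was not tested.

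Over the egress and homing list, 14 of 16 measured genes were higher in LTS T cells with an S1pr1 or Klf2 UMI, 7 with an interval above 1 and 1 with an interval below it, and the median log2 ratio was 0.47. Of 13 measured tissue retention genes, 5 were higher and 8 lower, 0 with an interval above 1 and 3 below, with a median of -0.25. Over all 6901 genes, 4.48% had an interval above 1 and 1.71% below, with a median of 0.078. Control had 6 T cells with an S1pr1 or Klf2 UMI after thinning, too few for the same comparison.

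**Figure D5:**
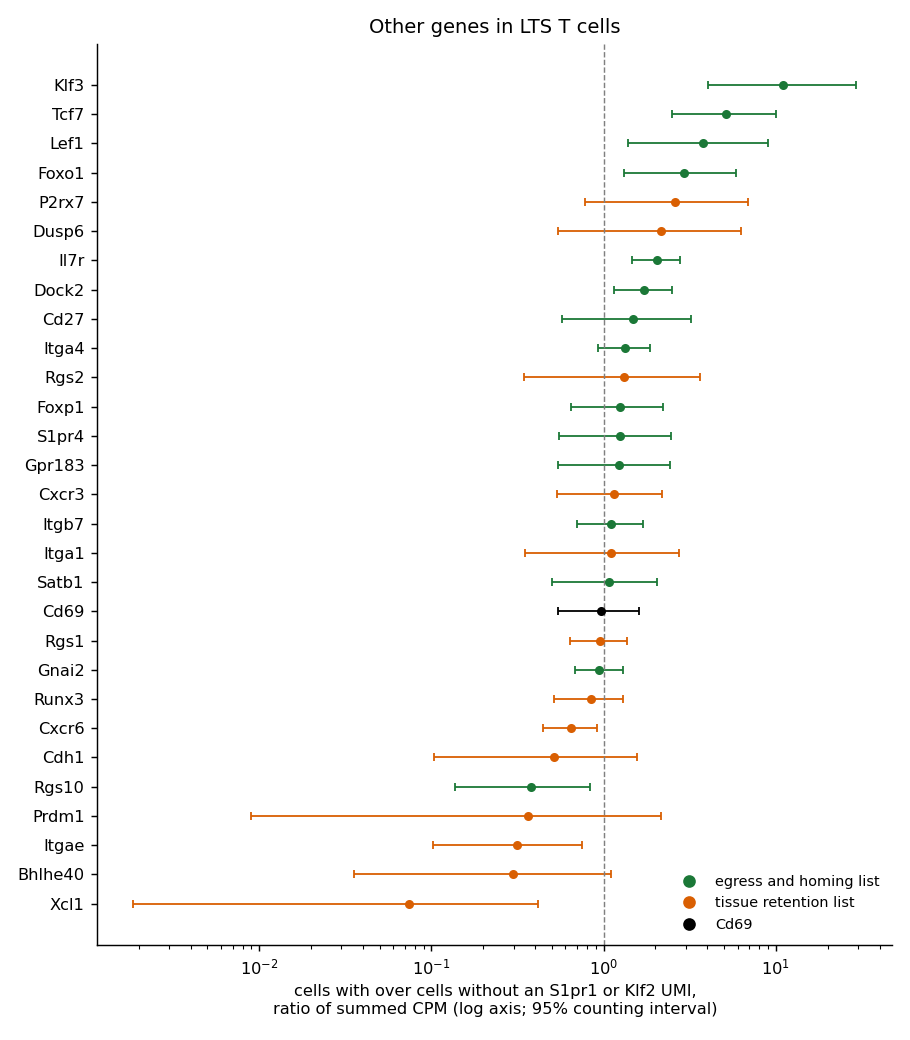
Ratio of summed CPM in LTS T cells with over LTS T cells without an S1pr1 or Klf2 UMI (log axis, exact conditional 95% intervals), for egress and homing genes (green), tissue retention genes (orange) and Cd69 (black), for genes with at least 20 UMIs. Klf3 (11.0) and Tcf7 (5.16) stand highest, Cd69 (0.960) lies at the line of no difference, and Itgae (0.316) and Xcl1 (0.0738) stand among the lowest.

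Between libraries, the egress and homing list did not move as one in T cells. Of 20 genes, 19 were in the files and 15 reached 20 CPM. LTS T cells were higher in 8 and lower in 7, with 3 at least 2-fold higher and 1 at least 2-fold lower, and the median log2 ratio was 0.023 against -0.21 for all genes. Of all 7119 genes at this minimum, 8.27% were at least 2-fold higher and 13.2% at least 2-fold lower in LTS T cells. Il7r was 3.83-fold higher (2.06 to 8.05), with 296 CPM in LTS and 77.4 CPM in control, and Rgs10 was 3.43-fold higher (1.64 to 8.62), with 186 and 54.2 CPM. Cd27, a costimulatory receptor, was 2.58-fold higher (0.848 to 12.8, 3 control UMIs), and Itga4, an integrin for entry from blood, 1.53-fold (1.06 to 2.30). Klf3 was 16.9 CPM in LTS and 54.2 CPM in control (ratio 0.311, 0.127 to 0.872), and so reached 20 CPM in control only. Tcf7 (0.640), Gpr183 (0.736), an oxysterol receptor that positions cells, and Foxp1 (0.988) had intervals that include 1.

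The tissue retention list held 15 measured genes of 20, 10 higher and 5 lower in LTS T cells, with a median log2 ratio of 0.21. Of the 15, 2 were at least 2-fold higher and 3 at least 2-fold lower, beside the same 8.27% and 13.2% of all genes. The higher genes, Itgae and Cdh1, reached 20 CPM in LTS only, each with 7.74 CPM in control. Not all of the lower genes reached it in LTS, where Nr4a2 was at 9.28 CPM. These counts therefore rest partly on genes that met the minimum through 1 library. Itgae was 185 CPM (219 UMIs) in LTS and 7.74 CPM (1 UMI) in control, a ratio of 23.9 (4.24 to 947). Its binding partner E-cadherin, Cdh1, had 82 UMIs in LTS and 1 in control (8.94, 1.56 to 357). Xcl1 was 2.01-fold higher (1.07 to 4.25) in summed UMIs. Of its 184 LTS UMIs, 183 lay in 17 cells, and its 10 control UMIs lay in 3 cells, so that interval is too narrow. Itga1, a collagen-binding integrin, had a ratio of 1.80 (0.670 to 6.8). Nr4a2 (0.150, 0.0549 to 0.429), which T cell receptor signals induce, and Dusp6 (0.351, 0.162 to 0.844), a phosphatase of the same pathway, were lower in LTS. Nr4a2 rests on 11 UMIs in LTS and 8 in control, the latter in 3 cells. It was also among the leading genes of the fibroblast-like cluster, and the part of free RNA in its ratio was not tested. Rgs2 (0.701) and Bhlhe40 (1.13) had intervals that include 1.

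In the T cell activation and interferon list, 5 of 18 measured genes were higher and 13 lower in LTS T cells, with a median log2 ratio of -0.99. Of the 18, 2 were at least 2-fold higher and 9 at least 2-fold lower, beside 8.27% and 13.2% of all genes. The higher genes reached the minimum of 20 CPM in LTS only, and Oasl2, among the lower ones, in control only (6.75 CPM in LTS). The interferon-induced genes Oasl2 (0.109, 0.0357 to 0.333), Ifit3 (0.228, 0.134 to 0.398) and Isg15 (0.252, 0.137 to 0.485) were lower, and so was Tnfrsf4, the costimulatory receptor OX40 (0.236, 0.151 to 0.377). Oasl2 rests on 8 UMIs in each library. Oasl2, Ifit3 and Isg15 were also among the leading genes of clusters in the non-immune pool. Free RNA was estimated at 29.9% of UMIs in LTS T cells and 49.4% in control T cells. Its part in these ratios was not tested. Cd44 (1.08), Il2ra (0.989) and Nfkbia (0.919) had intervals that include 1. Cd69 had a ratio of 1.01 (0.673 to 1.58) in the same T cells, and its relation to interferon was not tested.

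Ligands and lipid handling genes were read across classes, since T cells hold few of them. In T cells 3 of 14 were measured, with a median log2 ratio of -0.11, against -0.21 for all genes. Sgpl1 had a ratio of 0.908 (0.277 to 4.70) and Sgpp1 of 0.945 (0.290 to 4.88), and Sphk1 reached 20 CPM only through 3 control UMIs. Ccl19, a Ccr7 ligand, had 24 UMIs in LTS endothelial cell-like cells, 22 of them in 1 cell, and 2 UMIs in control. Ccl21a, the other ligand, had 0 UMIs there in LTS and 10 in control, all in 1 cell; near-identical copies of this gene can share its reads. Spns2, which exports sphingosine 1-phosphate, was 37.8 CPM (29.1 to 48.1) in LTS and 27.4 CPM (20.9 to 35.4) in control endothelial cell-like cells. Sgpl1, the enzyme that breaks the lipid down, was 129 CPM (119.3 to 139) in LTS and 114 CPM (105 to 125) in microglia-like cells from control. S1pr4, a related receptor of lymphocytes, was 90.3 CPM (74.0 to 109) in LTS T cells and 61.9 CPM (26.7 to 122) in control T cells.

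The genes whose levels across classes were most like each member were found by Pearson's r of log2(CPM + 10) over 14 class and library profiles of at least 30 cells and 5945 genes. The profiles share libraries and depth, and mature dendritic cell-like cells were too few to enter. For Ccr7 these included Blk (r = 0.94), Bcor (0.92), Cnot4 (0.91) and P2ry10 (0.90). Among the profiles, only control T cells (54.2 CPM, 7 UMIs) and LTS B cell-like cells (43.4 CPM, 11 UMIs) had Ccr7 above 10 CPM. Its r values therefore rest on these sparse profiles. For S1pr1 they were Sec61b, Pdlim1, Caskin2, Trp53i11 and Heg1, each at r = 0.92. Klf2 was most like Rasgrp3 (0.89), Macf1 (0.87), Creld2 (0.87), Gxylt1 (0.86) and Zdhhc21 (0.86), and Cd69 most like Psd4 (0.99), Stk4, Sash3, Sorl1 and Dennd1c (0.98 each).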

How the data were processed

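The authors deposited whole-number UMI counts for each gene in each barcode, not normalized. Per the file headers, Cell Ranger 4 produced them. The submitters' processing notes name mm10 as the build, and no annotation release was stated. Libraries used 3' version 3 droplet chemistry, per the labels' protocols. Both matrices listed 6794880 barcodes, so cells were called by the filters in the report, which removed 1 LTS and 0 control barcodes for few genes and 604 and 817 for mitochondrial UMIs. Scrublet marked 1.76% of LTS and 0.0120% of control cells, so it had not worked in control and no doublet was removed.

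Both libraries were clustered together (scanpy 1.11.5, 2000 variable genes without the members, listed genes and receptor segments, 30 components, 15 neighbours, Leiden resolution 1). One mixed cluster was sub-clustered after its genes were seen, giving the plasmacytoid and conventional dendritic cell-like cells. A cluster took a name from at least 3 markers. Counts were summed per class and library and scaled to CPM. Levels carry exact Poisson, shares exact binomial (Clopper-Pearson) and ratios exact conditional 95% intervals. Differences of shares were bounded by the outer ends of both binomial intervals. The ratio, interval and thinning steps were tested on simulated data.

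The members, gene lists and markers were chosen with earlier results of these data known. From each list, genes of at least 20 CPM in T cells of either library were counted, and the 4 highest and 4 lowest log2 ratios among those of at least 50 CPM were named, except that a few genes are not reported here. Other list genes, in the comparison of cells with and without an S1pr1 or Klf2 UMI and across classes, were chosen after their values were seen.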

Additional observations from a re-analysis of the deposited data

How the results depend on the processing

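No paired analysis was possible because each group had 1 library, and for the same reason no replicate could be left out. Across the results that answer a comparison, 78 values under other settings stayed within the counting interval of the value reported or, for counts, within 1.5 times of it, and 5 moved further; among other ratios 111 stayed and 6 moved. None of the called ratios turned. The Klf2 log2 ratio in T cells was -1.95 with free RNA taken off, against -1.07. The count of genes past 2-fold in T cells was 586 and became 1527 at a minimum of 20 CPM and 3067 with none, where more genes were tested, 359 with a pseudocount of 20 CPM and 1425 with free RNA taken off. Ccr7 in T cells ranged between -3.39 (free RNA taken off) and -1.57 (pseudocount of 20 CPM). The S1pr1 difference between T cells with and without a Cd69 UMI was 1.78 points without thinning, 0.46 points with another random thinning and 0.12 points with cells thinned to 2000 UMIs, which left out 39 LTS T cells. The Klf2 difference was -0.080 points with another random thinning and -0.84 points over the whole T cell-like cluster. Those differences hold no direction. Free RNA could not be taken off the non-immune pool, whose genes gave the estimate. The other random thinning, the barcodes shared by both libraries and the settings for class order were chosen after seeing the data. The number of members with the same highest class in both libraries was 3, with 2 under finer clustering and 4 with equal weight to each cell or without the top cell. The highest class of Ccr7 and S1pr1 stayed under all settings tried; for Cd69 in LTS it became T cells with equal weight to each cell or without the top cell.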
